A study of Mus musculus with 24 samples.

Results

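The genes described here are 49 mouse genes of the cell cycle and of DNA replication, chosen by name: cyclins, cyclin-dependent kinases and their inhibitors, the retinoblastoma and E2F proteins, the factors that license and replicate DNA, and the kinases and checkpoint proteins of mitosis. They are represented by 94 of the 56605 probes of the array, and 46 of the 49 passed the filter on low signal, among 18438 genes tested. RNA of 24 pools of frozen expanded mouse blastocysts was measured on Agilent arrays, 1 Cy3-labelled pool per array. There are 6 conditions, for which only the codes HC1 to HC6 are known, with 4 pools each, and a pool held 15 blastocysts in HC1 to HC5 and 20 in HC6. The series title names bisphenol A and the activation of membrane estrogen receptors, but the labels do not say which code is which treatment, which is the control, or what strain or age of embryo was used. Every condition was therefore compared with the mean of the other 5 and with each of them, and pool size cannot be told apart from code in HC6. No label says that the pools of a condition came from separate animals or cultures, so the tests measure the spread between these pools.

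The cell cycle is driven by kinases that work only when bound to a cyclin. D-type cyclins with Cdk4 or Cdk6 start the phosphorylation of the retinoblastoma protein, which frees E2F factors to transcribe the genes of the next phase, while cyclins E, A and B with Cdk2 or Cdk1 take the cell through DNA synthesis and into mitosis. Before DNA synthesis each origin is licensed by the origin recognition complex, Cdc6 and Cdt1, which load the MCM helicase, and geminin binds Cdt1 to keep an origin from being licensed again. In the blastocyst the inner cell mass and the trophectoderm divide side by side, and trophectoderm cells can later copy their DNA without dividing.

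Signal is given as the log2 of the background-corrected intensity minus the 75th percentile of the same array. A value of 0 is thus the level of that percentile. Signal values were not compared between genes, since probes differ in brightness. Paralogs are set side by side only by whether their probes were above background, a call that also depends on the probe. Between 38.6% and 49.7% of the spots were well above background, a call of the scanner software, no spot was saturated, and the 75th percentile of intensity lay between 65.9 and 181. The lowest percentile was that of pool 4 of HC5, which had 39.1% of its spots above background. The labelled tissue carried its markers: all 10 trophectoderm genes, all 9 primitive endoderm genes and 9 of 10 inner cell mass genes were well above background on every array. Of the markers of other cells, 1 of 4 later trophoblast genes (Ascl2), 1 of 11 oocyte genes (Nlrp5) and 1 of 10 cumulus and granulosa genes (Foxl2) were above background on all 24 arrays. So were 2 of 8 oviduct and uterine genes (Wfdc2, Msx1) and 1 of 5 blood genes (Ptprc). The granulosa markers Fshr, Amh, Inha and Inhba and the oocyte markers Bmp15, Zp1 and Mos were above background on none. The same held for the trophoblast genes Hand1, Prl3d1 and Ctsq. In a pool of whole blastocysts, fewer cells of a type and less RNA per cell cannot be told apart.

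Most of the cell cycle genes were bright: 42 of the 46 tested were well above background on all 24 arrays, as were 13147 of all 18438 genes. The exceptions among the 49 were particular paralogs. Cyclin E2 (Ccne2) was above background on 3 of 24 arrays, while cyclin E1 (Ccne1) was on all 24. Cdk6 has 3 probes, above background on 1, 0 and 0 arrays, while Cdk4, its paralog, was on all 24. The phosphatase Cdc25b has 2 probes, above background on 1 and 0 arrays, while Cdc25a and Cdc25c, which like it activate cyclin-dependent kinases, were on all 24. The cyclin D genes divided in the same way: Ccnd3 was detected on all 24 arrays, Ccnd1 on 21 and Ccnd2 on 14. E2f3 was detected on 21 arrays and E2f4 on 23. A probe not above background bounds the signal of that probe only, and 21 of the 49 genes have a single probe. For Cdkn1b and Bub1 the probe used was above background on all 24 arrays and the other probe on 0.

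Regulatory sequence was read for 37 of the 49 genes, those found in the RefSeq promoter table (build GRCm38.p6), in the 250 bases before the annotated start. Letters of the E2F core (the run TTCCCGC or its variants with TTGGCGC, or with TTCGCGC, or with TTGCCGC, on either strand) were present for 14 of the 37 genes, or 37.8%, against 9.01% of 27025 genes in the table. The CHR element TTTGAA, which the DREAM and MuvB complexes bind in promoters of G2 and mitotic genes, was present for 7 of 37 (18.9%) against 18.3% of all genes. CCAAT boxes, the site of NF-Y, were present for 25 of 37 (67.6%) against 37.5%. TTGGCGC and TTCGCGC can overlap each other, and the reverse strand of TTGGCGC shares letters with CCAAT. The windows below show how these letters are arranged; Orc1, Mki67, Ccnb1 and E2f3 are among the genes whose values are given, and Mcm6, Cdk1 and Cdc20 were added after the letters were seen, as examples of repeated matches. Capitals mark matches to the E2F core, TTTGAA or CCAAT in either orientation, and each window is written 5′ to 3′ on the strand of its gene.
Mcm6 (chr1:128359736-128359825, minus strand): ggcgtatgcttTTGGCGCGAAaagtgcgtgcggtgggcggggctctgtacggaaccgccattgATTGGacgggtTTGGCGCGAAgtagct
Orc1 (chr4:108579374-108579443, plus strand): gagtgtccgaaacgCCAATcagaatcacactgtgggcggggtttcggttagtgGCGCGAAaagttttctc
Ccnb1 (chr13:100786527-100786596, minus strand): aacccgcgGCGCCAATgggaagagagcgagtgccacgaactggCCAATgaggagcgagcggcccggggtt
Mki67 (chr7:135716420-135716499, minus strand): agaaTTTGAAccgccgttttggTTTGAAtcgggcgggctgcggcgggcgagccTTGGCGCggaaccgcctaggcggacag
Cdk1 (chr10:69352913-69352992, minus strand): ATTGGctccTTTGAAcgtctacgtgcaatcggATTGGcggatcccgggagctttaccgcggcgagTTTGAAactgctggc
Cdc20 (chr4:118437344-118437403, minus strand): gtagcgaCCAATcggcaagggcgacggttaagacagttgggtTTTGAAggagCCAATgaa
E2f3 (chr13:29986064-29986153, minus strand): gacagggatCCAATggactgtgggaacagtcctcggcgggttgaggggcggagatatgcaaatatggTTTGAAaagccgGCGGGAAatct
In the Mcm6 window the run TTGGCGCGAA occurs at 2 places and reads as TTGGCGC on the strand shown and as TTCGCGC on the other. In the Ccnb1 window the run GCGCCAAT holds an E2F core on the reverse strand and a CCAAT box that share letters. A match describes letters and not a bound site.

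No cell cycle gene differed among the 6 conditions after adjustment. In the moderated F-test of limma, 0 of the 46 genes passed an adjusted p of 0.05, as did 0 of all 18438 (0%). Before adjustment 1 of the 46 had a p under 0.05 (Ccnd1), beside 385 of 18438 (2.09%). With each condition set against the other 5, none of the 46 passed in any of the 6 comparisons (0% of all genes in each), and none passed in any of the 15 pairs (0% of 276570 gene and pair combinations). Before adjustment, limma gave a p under 0.05 for Ccnd1 in HC2 (2.25% of all genes there), for Ccnd1 in HC3 (1.58%) and for Cdt1 in HC5 (5.48%), and for no cell cycle gene in HC1 (3.2%), HC4 (1.89%) or HC6 (2.96%). A single gene of 46 is a share of about the size of these backgrounds.

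The intervals around these differences were narrow for the bright genes. Within a condition the median standard deviation of the 42 bright genes was 0.16 log2, against 0.22 over all 13147 bright genes, and 35 of the 42 (83.3%) spanned less than 2-fold from the lowest to the highest of 24 pools, against 61.0% of all bright genes. Mcm6, a helicase subunit, had the smallest spread (SD 0.10) and Cdkn2a the largest (SD 0.59). The 95% interval of the difference between a condition and the other 5 lay wholly within 1.5-fold either way for 41 of 42 bright genes in HC1, HC3 and HC4, for 40 in HC2 and HC6, and for 39 in HC5. Among the bright genes the differences ran from -0.43 (Cdkn2a in HC2) to 0.35 log2 (Cdkn2a in HC1). The plot of differences by role shows most points close to 0 in every condition and the outlying ones among genes near background.

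**Figure D1:**
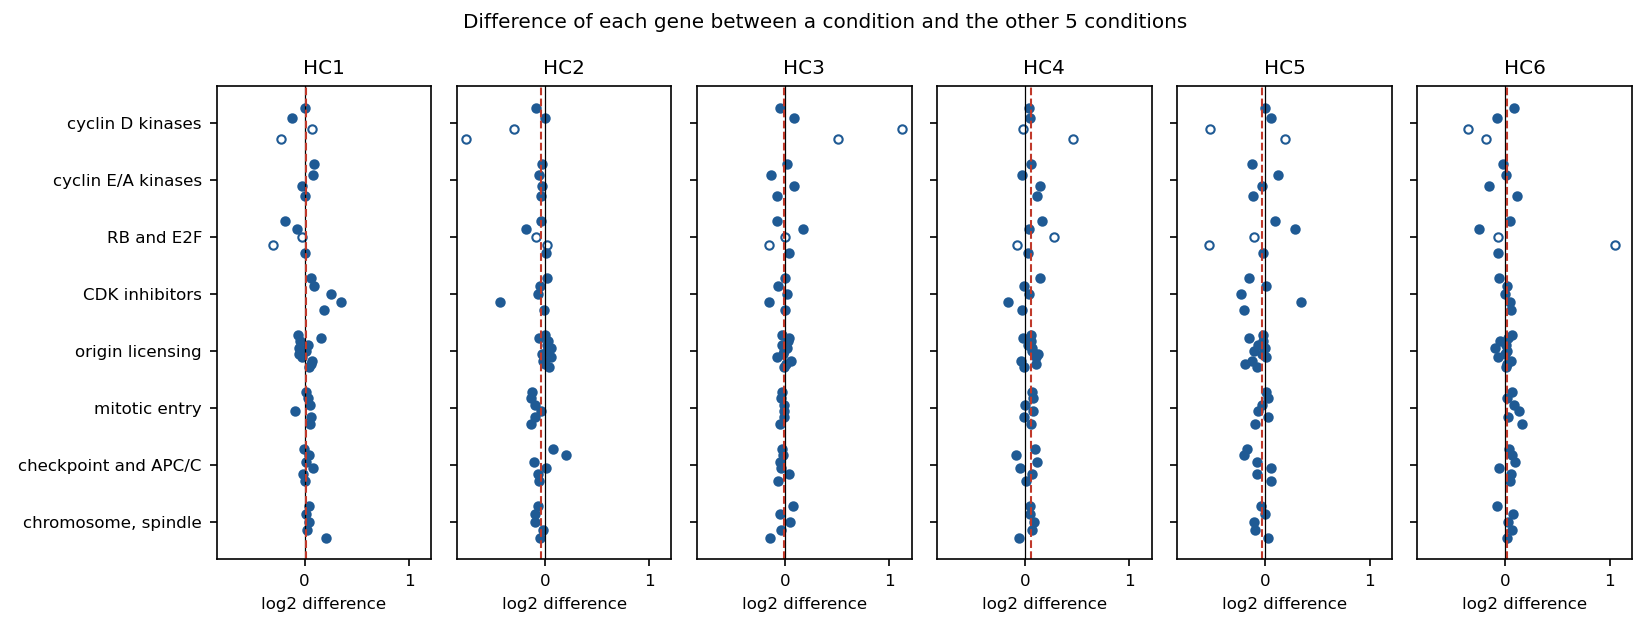
Log2 difference (x axis) between a condition and the mean of the other 5 for each of 46 genes, with 1 panel per condition and the genes grouped by role on the y axis. Filled points are the 42 genes well above background on all 24 arrays, open points the 4 that were not, and the red dashed line is the median of the 46; the farthest points are open ones, among them E2f3 in HC6 (1.05), Ccnd2 in HC3 (1.12) and Ccnd1 in HC2 (-0.75).

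The D-type cyclins, which link outside signals to the start of a cycle, gave the smallest p of the 46 tested. Cyclin D1 (Ccnd1; its only probe lies at chr7:152116202-152116261, mm9, minus strand) read -2.23, -1.89, -2.07 and -2.55 in the HC2 pools. It read -0.83, -1.79, -0.97 and -0.94 in HC3 and -0.70, -1.80, -1.24 and -0.98 in HC4. The 4 HC2 pools lay below all HC4 pools and all HC3 pools. In HC1 the values were -1.70, -2.01, -1.68 and -1.59, in HC6 they were -1.45, -2.22, -1.70 and -1.48, and in HC5 they ran from -2.41 to -0.62, so HC2 overlapped these 3 conditions. The HC2 mean was -2.18 ± 0.28 (SD, n = 4) against -1.43 ± 0.50 (n = 20), a difference of -0.75 log2 (95% interval -1.25 to -0.25; limma adjusted p = 1). The 4 HC2 pools were all below the mean of the others. Within the 3 slides the difference was -0.86 (pools 1 and 2), -0.58 (pool 3) and -1.14 (pool 4), so the slides repeat single pools. The difference between HC2 and HC3 was -1.05 log2 (limma adjusted p = 1) and that between HC2 and HC4 was -1.01 log2 (limma adjusted p = 1). In HC3 the difference from the other 5 was 0.51 log2 (limma adjusted p = 1.0), with 3 of 4 pools above the others' mean, and in HC4 it was 0.46 log2 (limma adjusted p = 1.0), with -0.26 log2 on 1 of the 3 slides. That slide held only pool 2 of HC4. The signal was near background throughout: the probe was well above it on 3 of 4 HC2 arrays and on 18 of the other 20. The size of the HC2 difference moved with the treatment of low signal, to -0.25 log2 with normexp correction and quantile scaling and to -0.39 log2 in the authors' deposited table, with the same direction.

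The signal of cyclin D2 (Ccnd2) was also near background. Its brightest probe was above background on 4 of 4 HC3 arrays, 3 of 4 HC4 arrays, 2 each in HC1, HC2 and HC6, and 1 in HC5. The HC3 pools read -1.97, -2.004, -1.10 and -2.31, the third of these being the highest of all 24 pools; the other 3 lay within the range of the other 20 pools (-5.08 to -1.26), so the groups overlapped. The mean was -1.84 ± 0.52 (SD, n = 4) in HC3 and -2.96 ± 1.18 in the others (n = 20), a difference of 1.12 log2 with a 95% interval from -0.19 to 2.43 (limma adjusted p = 1.0). With normexp correction and quantile normalization the difference fell to 0.22 log2, and in the authors' deposited table it was 0.28. Cyclin D3 (Ccnd3), the bright paralog, ran from 4.21 in pool 3 of HC1 to 4.94 in pool 4 of HC5 with a median of 4.57. Its condition means lay between 4.49 ± 0.22 (HC1) and 4.66 ± 0.13 (HC3; SD, n = 4 each), and the order of the 6 means was within their spread. Cdk4, the kinase partner of these cyclins, spanned 1.34-fold over the 24 pools.

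**Figure D2:**
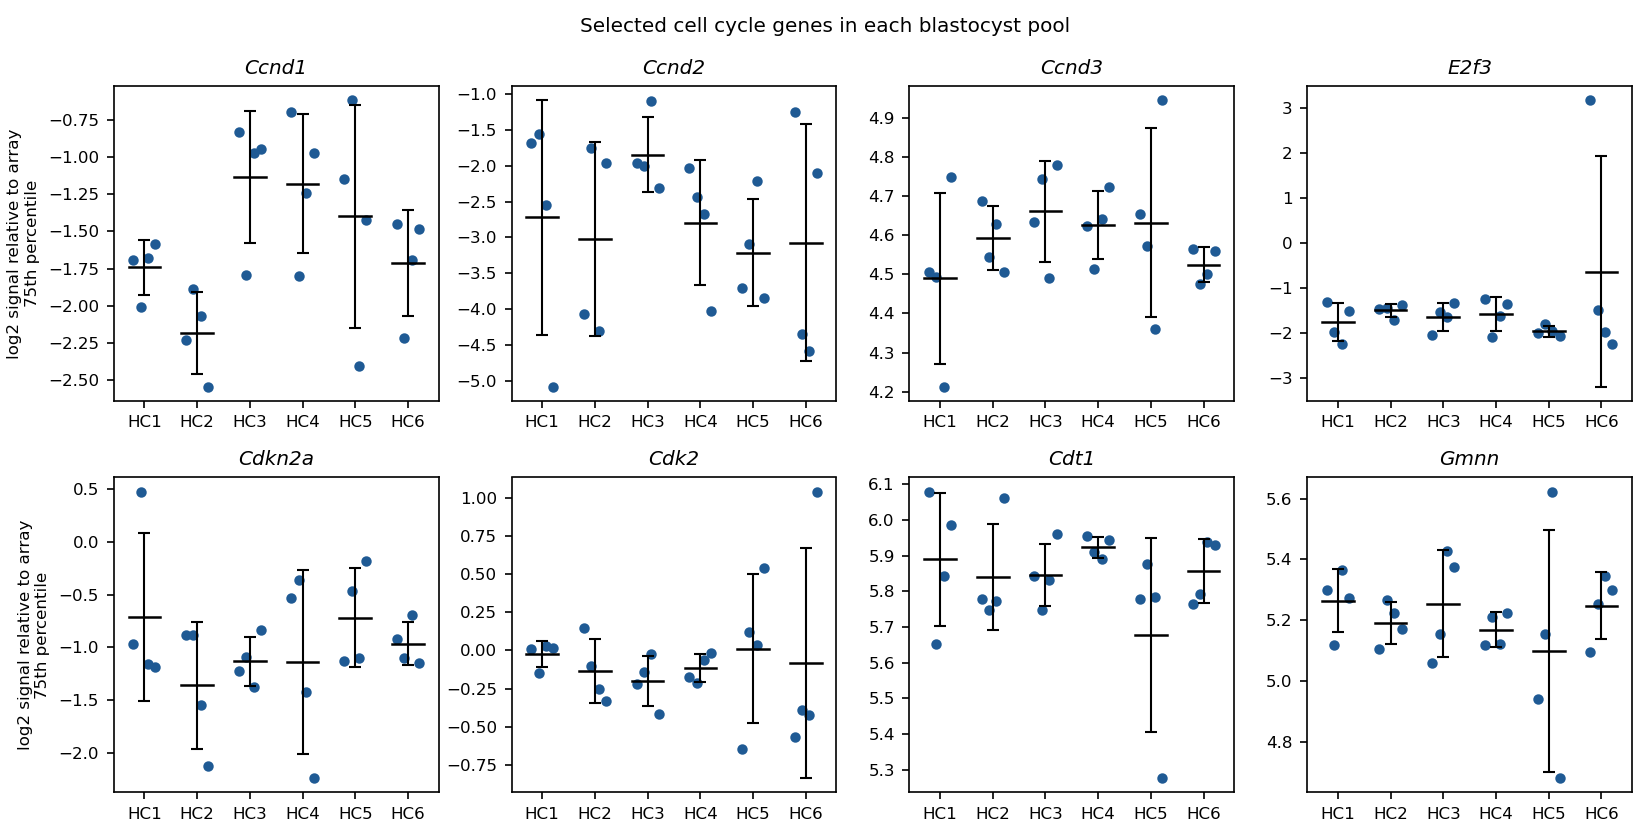
Log2 signal relative to the 75th percentile of the array (y axis) in each of 24 pools for 8 genes, by condition (x axis); points are pools, horizontal bars the means of 4 pools and vertical bars the SD. Ccnd1 is lowest in HC2, E2f3 has a single pool at 3.16, and the low Cdt1 point in HC5 is pool 4 (5.28).

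Among the kinases of DNA synthesis, cyclin E1 had the smallest p of the F-test (limma adjusted p = 1.0), with condition means from 4.02 ± 0.17 in HC6 to 4.27 ± 0.13 in HC4 (SD, n = 4 each). Cdk2, the partner of cyclins E and A, varied more within conditions than most bright genes (SD 0.39). It read -0.56, -0.39, -0.42 and 1.04 in the HC6 pools, with pool 4 alone high, and -0.64, 0.12, 0.04 and 0.54 in HC5. In HC1, HC3 and HC4 all 12 pools lay between -0.42 and 0.03. Cdc25a, the phosphatase that activates Cdk2, ran from 3.50 in pool 4 of HC5 to 4.04. Cyclin A2 (Ccna2) has 2 probes, both bright on all arrays, that did not vary together. The brighter ran from 3.51 to 4.53 (SD 0.25) and the other from 3.79 to 4.07 (SD 0.07), with r = -0.04 over 24 pools, condition means left in.

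The E2F and retinoblastoma genes held the pool value farthest from the rest. E2f3, an activating E2F, read 3.16 in pool 1 of HC6 and -1.48, -1.97 and -2.25 in the other 3 pools of that condition. In all 23 other pools it lay between -2.25 and -1.25, so the gap from pool 1 of HC6 to the next pool was 4.42 log2. It rests on 1 spot, with a processed signal of 749 against 11.2 to 49.3 in the other pools; the spot carried no saturation, non-uniformity or outlier mark, and its pixels had an SD of 318 around a mean of 769. The authors' deposited table showed the same pool apart, at log2 9.53 against 5.67 to 6.21. A gap over 3 log2 between the highest pool and the next was found for 71 of 18129 genes with a value in every pool (0.392%), 7 of them in this pool, and for no other cell cycle gene. The HC6 difference was 1.05 log2 (limma adjusted p = 1.0) and -0.22 without that pool. E2f3 has 1 probe on the array, so no second probe could be read; its 60 bases map over a genomic span of 1087 bases (chr13:30001985-30003071, mm9, minus strand) and are shown because the outlying value rests on them.
E2f3 probe: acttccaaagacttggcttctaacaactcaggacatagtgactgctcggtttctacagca

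The other genes of this group moved less. Rb1, the retinoblastoma protein, had condition means from -1.46 ± 0.38 in HC6 to -1.01 ± 0.25 in HC5 (SD, n = 4 each; limma F-test adjusted p = 1.0). E2f4, a repressing E2F that was detected on 23 arrays, ran from -1.73 to 0.21 with a median of -0.75, and each condition overlapped every other. The bright genes E2f1 and Rbl1, an Rb1 paralog, spanned 1.63-fold and 1.69-fold over the 24 pools. A second Rb1 probe was above background on 10 arrays and had r = 0.02 with the probe used, condition means left in.

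Of the inhibitors and brakes, Cdkn2c, an inhibitor of Cdk4 and Cdk6, read 0.38, 0.50, 0.23 and 0.24 in the HC1 pools and -0.27, -0.18, 0.31 and -0.12 in HC5. Its 4 HC1 pools lay above the mean of the other 20, with a mean of 0.34 ± 0.13 (SD, n = 4) against 0.09 ± 0.23 (n = 20), a difference of 0.25 log2 (limma adjusted p = 1.0). All 5 genes of this group were higher in HC1 than in the others, with a median difference of 0.19 log2, and none passed the test; without pool 2 of HC1 4 of 5 were higher (median 0.10). Cdkn2a, the locus of p16INK4a and p19ARF, was the most variable of the bright genes: it read 0.48 in pool 2 of HC1 and between -1.19 and -0.97 in the other HC1 pools, and from -2.24 in pool 4 of HC4 to -0.36 in pool 2 of HC4. Its condition means, from -1.36 ± 0.60 (HC2) to -0.71 ± 0.80 (HC1), did not differ beyond this spread (limma F-test adjusted p = 1.0). Its mean signal over the 24 pools was low (-1.01), and its other probe was above background on 0 arrays. Chek1, the kinase that stops the cycle on unreplicated DNA, had means from 0.94 ± 0.14 in HC5 to 1.19 ± 0.18 in HC4, where the difference from the other 5 was 0.14 log2 (limma adjusted p = 1.0) and was -0.14 on 1 slide. That slide held only pool 2 of HC4. Cdkn1b (p27) and the Cdk1 inhibitor Wee1 spanned 2.05-fold and 1.43-fold.

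The licensing genes varied least of the 8 roles (median SD within conditions 0.14): all 11 were bright on every array and none had an unadjusted F-test p under 0.05. Orc1, the largest subunit of the origin recognition complex, had the smallest F-test p of the group (limma adjusted p = 1.0). It read 2.28, 2.21, 2.42 and 2.24 in HC1 and 1.95, 2.15, 2.15 and 1.85 in HC5, so all HC1 pools lay above all HC5 pools. The difference between these conditions was 0.26 log2 (limma adjusted p = 1). Against the other 5 it was 0.16 log2 in HC1 (limma adjusted p = 1.0) and -0.15 log2 in HC5 (limma adjusted p = 0.87), where it became -0.10 without pool 4.

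Cdt1, the loader of the MCM helicase, read 5.78, 5.88, 5.78 and 5.28 in the HC5 pools and between 5.89 and 5.95 in HC4. Pool 4 of HC5 was the lowest of all 24, and the other 3 HC5 pools lay within the range of HC2 (5.75 to 6.06). The HC5 mean was 5.68 ± 0.27 (SD, n = 4) against 5.87 ± 0.11 (n = 20), a difference of -0.19 log2 (95% interval -0.38 to -0.0015; limma adjusted p = 0.87). Without pool 4 it was -0.06 log2, and within the 3 slides it was -0.06 (pool 1), 0.04 (pool 2) and -0.44 (pools 3 and 4). The array of pool 4 also had the lowest 75th percentile of intensity, and its part in the result was not tested. Geminin (Gmnn), the inhibitor of Cdt1, held both its lowest value (4.68, pool 4) and its highest (5.62, pool 3) in HC5. Its condition means lay between 5.10 ± 0.40 (HC5) and 5.27 ± 0.10 (HC1; SD, n = 4 each).

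The 6 MCM subunits, which form a single ring-shaped helicase, had condition means that differed little: the largest range among pools was that of Mcm4 (1.64-fold) and the smallest that of Mcm6 (1.24-fold). All 6 were higher in HC4 than in the others, with a median difference of 0.07 log2, where the median of all genes was also higher, by 0.05; on the scaling to detected probes 5 of the 6 were higher, with a median of 0.01. Pcna, the clamp that holds DNA polymerase at the fork, ran from 4.61 in pool 2 of HC1 to 5.17 in pool 3 of HC6.

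**Figure D3:**
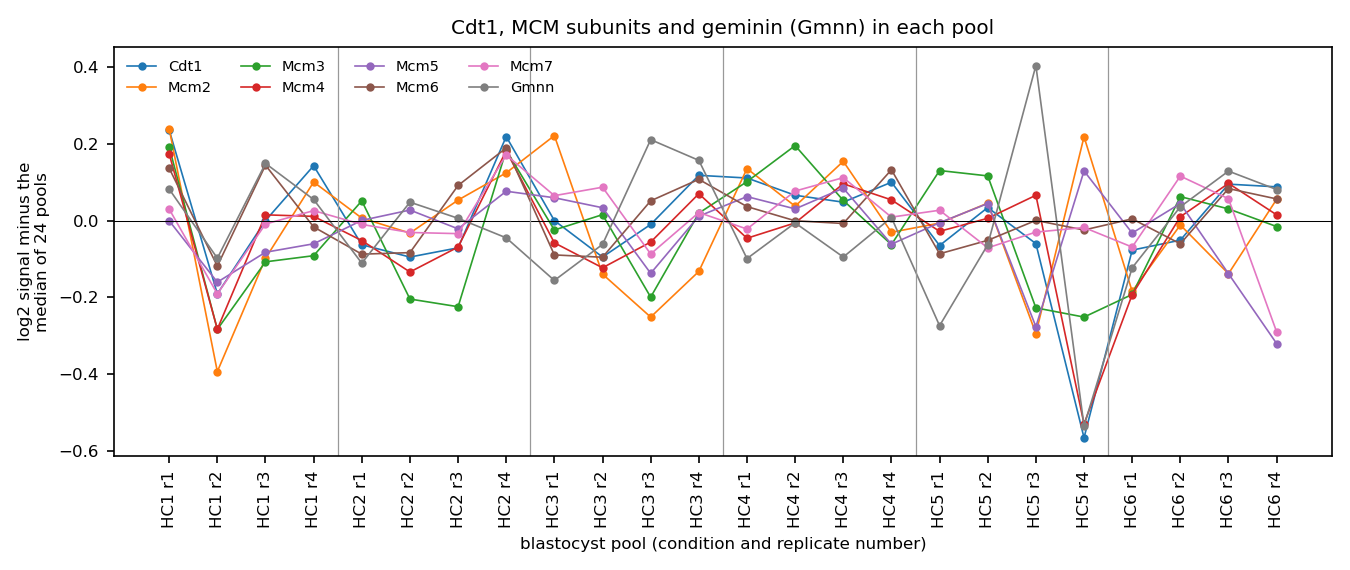
Log2 signal minus the median of 24 pools (y axis) for Cdt1, the 6 MCM subunits and Gmnn in each pool (x axis), with vertical lines between conditions. In pool 4 of HC5, Cdt1, Mcm4 and Gmnn fall to their lowest values while Mcm2 and Mcm5 do not, and in pool 2 of HC1 Mcm2, Mcm3 and Mcm6 are at their lowest.

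Mitotic entry genes did not pass the test in any condition. Cyclin B1 (Ccnb1), the partner of Cdk1, read 4.83, 4.92, 4.96 and 5.01 in HC6, all above the mean of the other 20 pools (4.77 ± 0.17). The HC6 mean was 4.93 ± 0.08 (SD, n = 4), a difference of 0.16 log2 (limma adjusted p = 1.0). In HC2 the pools read 4.73, 4.57, 4.47 and 4.97, a difference of -0.13 log2 that ran from -0.23 to -0.06 as single HC2 pools were left out and was 0.12 on 1 of the 3 slides. That slide held only pool 4 of HC2. All 6 tested genes of mitotic entry (Ccnb1, Ccnb2, Cdk1, Cdc25c, Plk1 and Aurka) were higher in HC6, with a median of 0.07 log2, and lower in HC2, with a median of -0.11, under each of the 5 scalings. All 6 were also lower in HC3 (median -0.02), and 5 of the 6 were higher in HC1 and in HC4. Of all genes, 48.2% were higher in HC6, 41.8% in HC2, 49.9% in HC3, 47.8% in HC1 and 65% in HC4. Without pool 2 of HC6, 4 of the 6 were higher (median 0.03), and without pool 3 of HC2, 5 of the 6 were lower (median -0.04). Inner cell mass markers were higher in HC6 for 8 of 10 genes and lower in HC2 for 9 of 10, and their part in these counts was not tested.

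For the spindle checkpoint and the anaphase-promoting complex, Fbxo5 (Emi1), an inhibitor of that complex, had the smallest F-test p of the group (limma adjusted p = 1.0), with means from 3.24 ± 0.24 in HC5 to 3.47 ± 0.05 in HC4. Ttk, the Mps1 kinase of the checkpoint, was variable within conditions on the probe used (SD 0.36). It read 1.49 in pool 3 of HC1 and 1.54 in pool 3 of HC2, and between 0.11 and 1.09 in the other 22 pools. The other Ttk probes above background on all 24 arrays did not follow it (r = -0.0063 and -0.53, condition means left in). A further probe, above background on 16 arrays, had r = 0.22. Cdc20, an activator of the complex, spanned 1.33-fold over all pools. Among the chromosome and spindle genes, Mki67, the Ki-67 antigen that marks dividing cells, ran from 4.00 in pool 3 of HC2 to 4.67 in pool 1 of HC1. Its condition means lay between 4.30 ± 0.14 (HC5) and 4.46 ± 0.13 (HC4; SD, n = 4 each), and in no condition did it differ from the other 5 by more than 0.11 log2. Birc5 (survivin) and Top2a spanned 1.501-fold and 1.55-fold.

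Small shifts of the whole group went in different directions by condition. Of the 46 genes, 31 were higher in HC1 and 31 in HC6 than in the other conditions, 33 in HC4, 19 in HC3, 15 in HC5 and 14 in HC2. The median difference was 0.05 log2 in HC4, beside 0.05 over all genes tested. It was 0.02 log2 in HC1 and 0.02 in HC6, beside -0.0063 and -0.0056 over all genes. It was -0.04 log2 in HC2 (all genes -0.02), -0.01 in HC3 (all genes -0.00026) and -0.03 in HC5 (all genes -0.0098). In HC4 the direction depended on the scaling: 23 of 46 were higher, with a median of -0.0016, when arrays were scaled on the probes detected everywhere. In HC1 18 of 46 were higher, with a median of -0.01, without its pool 1. In HC5 22 of 46 were higher, with a median of -0.01, without pool 4. In HC2 the median was -0.0064 without pool 3 and -0.0039 under the scaling on detected probes, and in HC6 it was 0.0019 without pool 3. Lineage markers also differed in their counts of directions. Of 10 inner cell mass genes all 10 were higher in HC4 and 8 in HC6, with 5 in HC1, 3 each in HC3 and HC5, and 1 in HC2. Of 9 primitive endoderm genes all 9 were higher in HC1 and HC4, with 5 in HC3, 2 each in HC2 and HC6, and 1 in HC5, and of 10 trophectoderm genes between 4 and 6 in each condition. None of these had an unadjusted F-test p under 0.05 in limma, and the summed levels of each list overlapped between conditions (inner cell mass 104.9 to 128.6 in HC2 and 117.8 to 130.8 in HC6, in units of the array's 75th percentile). Their part in the shifts of the cell cycle genes was not tested. The conditions share the pools they are compared with, so these 6 values are not independent.

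In the 15 pairs of conditions the 4 pools of a condition lay wholly above the 4 of the other in 6 of 690 gene and pair combinations (0.87%), against 1.57% over all genes. These were Ccnd1 in HC3 and in HC4 against HC2, Orc1 in HC1 against HC5, Cdkn2c in HC1 against HC2, Cdt1 in HC4 against HC5 and E2f3 in HC2 against HC5. An unadjusted limma p under 0.05 was likewise found in 6 of the 690 (0.87%), against 2.84% over all genes, with Ccnd1 in 3 of them.

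A set of 144 other cell cycle genes, listed by function, was read in the same way, from the replication fork, origin firing, kinetochore, spindle, cohesin, condensin and the anaphase-promoting complex, and further regulators. Of these 143 were found on the array, 141 were tested and 137 were bright on every array; none passed in limma's F-test, where 0% of all genes did, and 0 had an unadjusted p under 0.05, beside 2.09% of all genes. The smallest p belonged to Plk4, the kinase of centriole copying (limma adjusted p = 1.0), with means from 0.40 ± 0.12 in HC1 to 0.85 ± 0.24 in HC4 (SD, n = 4 each). Kif15, a spindle motor, was next in its group, at -1.27 ± 0.39 in HC5 and -0.79 ± 0.11 in HC4 (limma adjusted p = 1.0). Pold2, a subunit of DNA polymerase delta, read 3.18 ± 0.13 in HC1 and 3.42 ± 0.16 in HC4 (limma adjusted p = 1.0). Cdkn1c (p57), a CDK inhibitor of trophoblast, read 1.52 ± 0.79 in HC6, with a pool at 2.67, and 0.53 ± 0.44 in HC4 (limma adjusted p = 1.0). Mcm10, Gins4, Rfc1, E2f2, Ncaph and Smc4, the others of smallest F-test p in their lists, each had a limma adjusted p of 1.0.

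The directions of the wider set were counted in each condition. For comparison, 41.8% of all genes tested were higher in HC2, 47.8% in HC1, 49.9% in HC3, 47.7% in HC5 and 48.2% in HC6. In HC1 74 of 141 were higher (median 0.0040), with 4 of 16 origin genes and 11 of 27 fork genes among them, and in HC3 59 of 141 were higher (median -0.02). In HC4 118 of 141 were higher (median 0.06), a count that was 83 of 141 (median 0.0096) on the scaling to detected probes; 65% of all genes were higher in HC4. In HC5 94 of 141 were lower (median -0.06), among them 32 of 38 kinetochore and spindle genes. Without pool 4, 77 of 141 were lower (median -0.0021). The lists differed in this: 15 of 38 kinetochore and spindle genes were then lower (median 0.01), while of the genes of the anaphase-promoting complex, cohesin and condensin 24 of 29 were lower without pool 4 (median -0.02) and 19 of 29 with it (median -0.05). In HC6 96 were higher (median 0.035), again with 32 of 38 kinetochore and spindle genes, a count that was 23 of 38 without pool 4. In HC2 97 of 141 were lower (median -0.04), 75 on the scaling to detected probes, and 78 without pool 3. Among the 97 were 32 of 38 kinetochore and spindle genes (median -0.06), as many as in HC5. That count ran from 28 to 35 as single HC2 pools were left out. Of the genes of the anaphase-promoting complex, cohesin and condensin, 24 of 29 were lower in HC2, and 18 to 26 as single HC2 pools were left out. These are counts of directions, and no gene behind them passed the test.

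Within conditions, the pools differed from each other in patterns that several genes shared. Correlations were taken over the 24 pools after each condition's mean was removed; they describe pools that share arrays, slides and scaling, and the pairs named were chosen after their values were seen. The median over 861 pairs of 42 bright genes was 0.145, against 0.075 over all pairs of 13024 bright genes with a value in every pool. Without pool 4 of HC5 these medians were 0.154 and 0.085, and without that pool and pool 2 of HC1 they were 0.111 and 0.0745. The median over 24 pools was 0.36 for the 55 pairs of licensing genes, 0.40 without pool 4 of HC5 and 0.33 without that pool and pool 2 of HC1. It was -0.23 for the 10 pairs of chromosome and spindle genes. Cdt1 and Mcm4 had the closest pair (r = 0.93, and 0.86 without pool 4 of HC5). Cyclin A2 with Mad2l1, a checkpoint protein, followed at 0.86, Cdk4 with Birc5 at 0.85, and Mcm3 with Mki67 at 0.85. These 4 pairs had r of 0.80 or more without the 2 pools in which the first-named gene lay farthest from its median. The extreme pools of the other gene could remain. Lower in the order, and after further pairs of Mcm3, Mcm4 and Mad2l1, cyclin B1 with Mcm4 went from 0.82 to 0.71 without 2 pools chosen in the same way. Aurka with Mki67 went from 0.80 to 0.70 and cyclin B2 (Ccnb2) with geminin from 0.80 to 0.74.

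Some genes ran against the rest. Cdkn2a had the lowest median correlation with the other 41 genes (-0.22), followed by Tpx2 (-0.18) and Ccnd3 (-0.16), and Mcm3 the highest (0.365). Geminin and Mcm5 had r = -0.66, which was -0.32 without the 2 pools, both of HC5, in which geminin lay farthest from its median. Cdkn1b and Cdkn2c, inhibitors of different families, had r = -0.67, which was -0.43 without the 2 pools in which Cdkn1b lay farthest from its median. Such values can rest on the probe: the cyclin A2 probe used had r = 0.83 with Mcm4 and 0.86 with Mad2l1, while the other cyclin A2 probe had 0.22 and -0.08. Over 30 further bright probes of 18 genes, r with the probe used, here with condition means left in, had a median of 0.52 and ran from -0.53 to 0.95. Among the genes of the closest pairs, it was 0.87, 0.36 and -0.27 for the further Cdk4 probes. For those of Mcm3 it was 0.95, 0.74 and 0.23, and for that of Birc5 0.38. Grouped by promoter letters, the 13 bright genes with an E2F core had a median r of 0.04 among themselves (-0.01 without pool 4 of HC5) while the 21 without it had 0.23. The 6 with TTTGAA had a median r of 0.29 and the 28 without it 0.14.

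**Figure D4:**
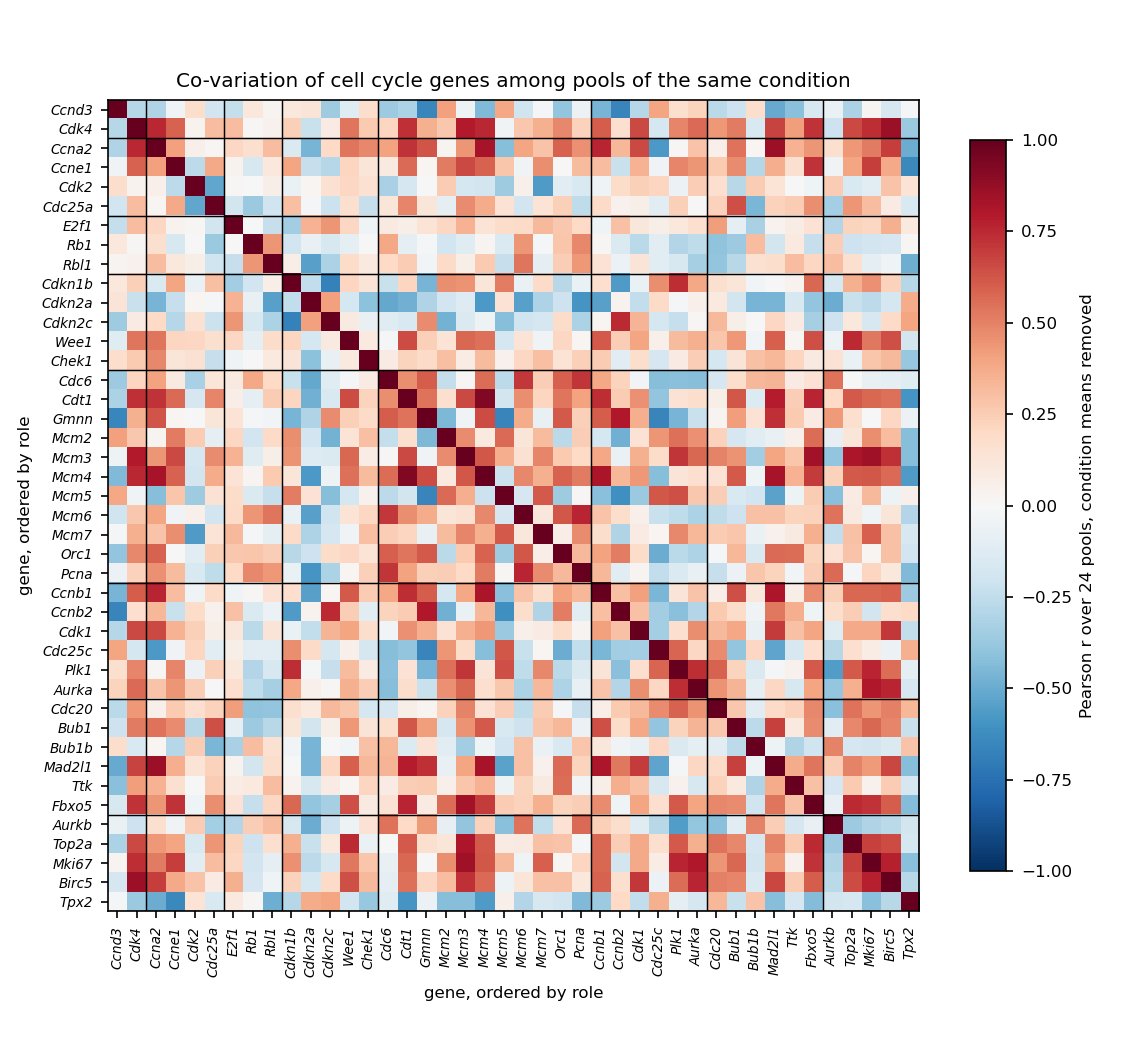
Pearson r between 42 bright genes over 24 pools after condition means were removed (colour, from -1 in blue to 1 in red), with genes ordered by role and lines between roles. Cdt1, Mcm3, Mcm4, Ccna2 and Mad2l1 are red across several roles (Cdt1 with Mcm4 at 0.93), while the columns of Cdkn2a, Tpx2 and Ccnd3 are mostly blue.

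The extreme values were spread unevenly over pools. Pool 4 of HC5 was lowest for 14 of the 42 bright genes (33.3%), among them Ccna2, Ccnb1, Cdt1, Gmnn, Mcm4, Orc1, Mad2l1 and Top2a, and highest for Ccnd3 and Mcm5; it was lowest for 22.7% of all bright genes and highest for 16.0%. Pool 2 of HC1 was lowest for 7 (16.7%, against 8.95% of all bright genes): Ccne1, Cdk1, Cdk4, Mcm2, Mcm3, Mcm6 and Pcna. Pool 3 of HC2 was lowest for Cdc20, Plk1, Aurka, Mki67 and Birc5, 5 genes that act in mitosis or mark dividing cells, or 11.9% against 5.93%. The same pool was highest for the mitotic checkpoint kinase Ttk and for Rbl1 (4.76% against 1.36%). Its mean deviation over all bright genes was the lowest of the 24 pools (-0.077 log2). Pool 2 of HC4 was highest for 6 genes (14.3% against 6.08%), and pools 4 of HC2 and HC6 for 5 each. Pool 3 of HC6 was lowest for 13.4% of all bright genes and for 1 of the 42, Tpx2.

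**Figure D5:**
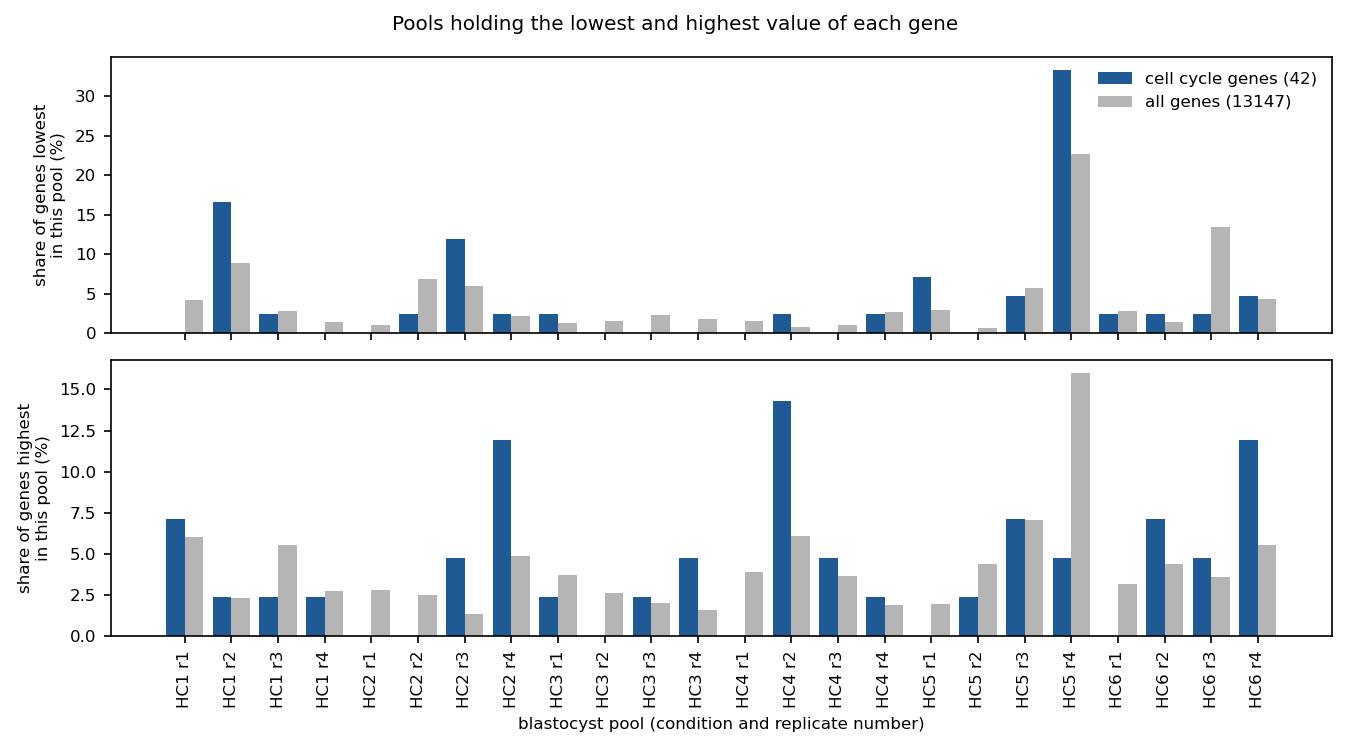
Share of genes (y axis, %) whose lowest value (upper panel) or highest value (lower panel) over 24 pools falls in each pool (x axis), for the 42 bright cell cycle genes in blue and all 13147 bright genes in grey. Pool 4 of HC5 holds the lowest value of 33.3% of the cell cycle genes and 22.7% of all genes.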

How the data were processed

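The authors deposited 1 scanner file per array with the intensity of each spot. Per the file headers, Agilent's scanner software (Feature Extraction, version 10.10.1.1) removed spatial background trends within each array, replaced values near background with surrogates, which bears on weak genes such as Ccnd1 and Ccnd2, and marked spots above background, saturation and outliers. The deposited value table (log2, 27101 probes) was an alternative; its medians, 7.00 to 7.01, show values on a common scale between arrays, and its normalization is not given in the sources used here.

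Control and outlier spots were left out, log2 processed intensity was averaged per probe, and each array's 75th percentile was taken off. A probe was kept if above background on 4 or more of 24 arrays, with at least 2 values in each condition; the brightest kept probe stands for its gene. The 49 genes were matched by the file's gene name. A model of 6 condition means was fitted over 18438 genes, as the number of arrays limits the precision of each, with limma 3.58.1 in R 4.3.3 (eBayes, Benjamini-Hochberg adjustment), the script having been tested on simulated data; adjusted p-values written 1.0 round from values below 1. Python 3.11.15, numpy 2.4.6, pandas 2.3.3, the data.table package (version 1.17.8) and matplotlib 3.10.9 were used.

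The genes and lists were chosen with earlier results of these data known. Values were given for the gene of smallest F-test p in each role, the 2 of smallest p in each condition against the others, the 3 bright genes of largest spread, every gene not bright on all arrays, and the cyclin D genes, Cdk6, Cdkn2a, Gmnn, Cdt1 and Mki67; of each further list, the 2 genes of smallest F-test p. Alternatives were other background corrections, scalings, filters, probe rules, slide and replicate blocks, array weights and leaving out each pool.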

Additional observations from a re-analysis of the deposited data

Results flagged for a closer look

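In 108 sets of 4 pools (18 genes in 6 conditions), 7 sets held a pool far from the other 3, with a gap past Dixon's critical value; chance marks about 1 in 20 such sets. E2f3 read 3.16 in pool 1 of HC6, against -2.25 to -1.48 in the others. Ccnd1 read -1.79 in pool 2 of HC3, against -0.97 to -0.83. Cdk2 read 1.04 in pool 4 of HC6, against -0.56 to -0.39, and -0.15 in pool 2 of HC1, against 0.01 to 0.03. Cdt1 read 5.28 in pool 4 of HC5, against 5.78 to 5.88, and 6.06 in pool 4 of HC2, against 5.75 to 5.78. Cdkn2a read 0.48 in pool 2 of HC1, the pool lowest for 7 other cell cycle genes, against -1.19 to -0.97.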

How the results depend on the processing

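The count of cell cycle genes passing the test was 0 in the F-test, in all 6 conditions against the others and in the 15 pairs, under 35 alternatives each: other corrections, scalings, filters, probe rules, blocks and weights, and 24 fits that left out a pool (range 0 to 0). Of 12 named differences under the same alternatives, 419 of 420 values kept their direction and side of the threshold; E2f3 in HC6 reversed to -0.22 without pool 1 and ran up to 1.59 without another HC6 pool. The group's median difference in HC4 moved from 0.05 to between -0.0016 and 0.01 under the 4 other scalings. Same-numbered pools did not deviate together (60 correlations from -0.32 to 0.34, median -0.01), and 7 of 24 pools correlated best with their own number. These values show no pairing by number, but they cannot tell whether same-numbered pools were collected together. A fit with the replicate number as a block also gave 0 cell cycle genes in each of these tests. Signals near background limit Ccnd1, Ccnd2, E2f3 and E2f4. Cdkn2a and Rb1 were above background on all 24 arrays, but with weak signals (means -1.01 and -1.25).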
